A study of Mus musculus with 6 samples.

Results

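The Pbx, Meis and Pknox genes encode homeodomain proteins of the TALE class, so called for a loop extension of 3 amino acids inside the DNA-binding domain, and 8 of them (*Pbx2*, *Pbx3*, *Pbx4*, *Meis1*, *Meis2*, *Meis3*, *Pknox1* and *Pknox2*) are followed here through the autonomic ganglia of the newborn mouse. They were taken by gene symbol from the 32285 genes of the deposited count tables by a rule that uses no expression value. All 8 had unique molecular identifiers (UMIs, each a counted mRNA molecule) in the neurons of each of the 6 libraries. The study compared the pelvic ganglion, which serves the bladder, rectum and sex organs, with sympathetic ganglia (stellate, coeliac and lumbar) and with the sphenopalatine ganglion, a parasympathetic ganglion of the head, by single-cell RNA sequencing. Whole ganglia came from mice at postnatal day 5 that carry a Cre driver and a *RosatdT* allele, in which Cre turns on a tdTomato reporter, and all 6 libraries carry both alleles. No wild-type library enters any comparison.

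The ganglia were processed in 2 rounds. The stellate, sphenopalatine and first pelvic libraries (round 1) were loaded with about 10000 cells on version 2 of the 10x Genomics chemistry, and the coeliac, lumbar and second pelvic libraries (round 2) with about 5300 cells on version 3. The pelvic ganglion alone has 2 libraries, 1 in each round, and each of the other ganglia has 1. Nothing in the sources used here says how many animals gave each library, so each p-value below measures the spread between libraries, and for the ganglia with 1 library each that spread is one between ganglia.

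Hox proteins bind DNA with low selectivity alone, and Pbx, Meis and Pknox (also called Prep) proteins are known as their partners on composite sites. Pbx proteins contact Hox proteins through the pocket next to the TALE loop, while Meis and Pknox proteins bind the amino-terminal part of Pbx and favour its stay in the nucleus. In autonomic neurons the group is of interest because the ganglia lie at different levels of the body axis and carry different Hox genes, whereas the cofactors are used along the whole axis.

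The coding sequence of the TALE loop shows how the 3 families divide, and it is printed here for all 8 genes because the families are treated in this order throughout. Each run is 93 bases, 5′ to 3′ on the coding strand. It starts 3 codons before the loop, has the 3 loop codons in capitals, and ends with the codons of the recognition helix that touches DNA. The letters were read from the GENCODE M21 transcripts of the GRCm38 (mm10) assembly.
Pbx2: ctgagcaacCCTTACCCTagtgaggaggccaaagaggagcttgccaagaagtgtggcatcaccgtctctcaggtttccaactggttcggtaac
Pbx3: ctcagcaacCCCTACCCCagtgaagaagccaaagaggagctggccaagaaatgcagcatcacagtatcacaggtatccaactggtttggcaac
Pbx4: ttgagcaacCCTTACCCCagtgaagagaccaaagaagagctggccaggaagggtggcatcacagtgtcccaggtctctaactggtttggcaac
Meis1: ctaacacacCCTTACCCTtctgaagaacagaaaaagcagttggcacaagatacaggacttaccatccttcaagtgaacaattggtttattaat
Meis2: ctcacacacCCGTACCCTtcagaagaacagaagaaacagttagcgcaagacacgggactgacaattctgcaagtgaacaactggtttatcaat
Meis3: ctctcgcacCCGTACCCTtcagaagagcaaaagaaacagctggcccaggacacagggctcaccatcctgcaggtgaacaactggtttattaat
Pknox1: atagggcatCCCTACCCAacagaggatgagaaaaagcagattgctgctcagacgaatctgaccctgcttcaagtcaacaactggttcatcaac
Pknox2: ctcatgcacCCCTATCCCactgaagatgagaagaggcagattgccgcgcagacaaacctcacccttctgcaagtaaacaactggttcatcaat

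Over these 93 bases the Pbx genes were 83.87% identical to each other in every pairing, the Meis genes 80.65 to 83.87%, and the pair of Pknox genes 78.49%. Meis and Pknox genes shared 62.37 to 70.97% of the bases, and Pbx genes shared 51.61 to 60.22% with Meis and 51.61 to 61.29% with Pknox. The Pbx run is split over 2 exons in each gene and the Meis and Pknox runs over 3, so the genomic spans that follow include introns. The Pbx genes lie at chr17:34591266-34597400 on the plus strand for *Pbx2* (run within chr17:34594646-34594821), at chr2:34171457-34373142 on the minus strand for *Pbx3* (run within chr2:34178322-34204851) and at chr8:69832491-69872292 on the plus strand for *Pbx4* (run within chr8:69866532-69870049). The Meis genes lie at chr11:18879817-19018985, minus, for *Meis1* (run within chr11:18885642-18941664), at chr2:115863064-116065839, minus, for *Meis2* (run within chr2:115868794-116000136) and at chr7:16175090-16186504, plus, for *Meis3* (run within chr7:16182463-16184047). The Pknox genes lie at chr17:31564734-31607693, plus, for *Pknox1* (run within chr17:31599638-31603196) and at chr9:36890982-37147407, minus, for *Pknox2* (run within chr9:36894489-36909634). The counts say nothing about these exons, because the libraries tag the 3′ ends of transcripts and give 1 count per molecule for the whole gene.

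Of 21442 cells retained, 7052 were neurons (237 in the coeliac library to 2724 in the stellate) and 8468 were glial cells (574 to 2899), both set by marker genes that are not among the 8. *Phox2a*, a transcription factor of autonomic neurons, had a UMI in 98.7 to 99.8% of neurons per library. A neuron held a median of 26651 to 108598 UMIs and a glial cell of 3522 to 12151, so levels are given in CPM, the UMIs of a gene over all UMIs summed across the cells of a class and scaled to the same total for every sum, which are not divided by gene length and are compared between cells, not between genes. Libraries shared 122 cell barcodes, 114 of them within round 1. RNA freed from broken cells sets a floor in each class. Across 6 neuronal marker genes the glial level was 2.87 to 18.97% of the neuronal level in the same library, and for a 7th it was 16.6 to 33.3%. Comparisons below with the highest neuronal marker gene include all 7. Across 8 glial marker genes the neuronal level was at most 15.6% of the glial level. The floor thus differs between marker genes and libraries.

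Neurons and glial cells of the same ganglia differed in the levels of some of the cofactors, and both classes held UMIs of all 8. *Meis1*, *Meis3* and *Pbx4* were higher in neurons, *Pknox2* was higher in glial cells, and *Pbx2*, *Pbx3*, *Pknox1* and *Meis2* did not pass the test. The sums of each class were compared over the 6 libraries, with the library as a block, by edgeR's quasi-likelihood test with Benjamini-Hochberg adjustment over 14019 genes. All 8 genes passed the filter on low counts. The 2 classes differ throughout the transcriptome, and 75.2% of all genes tested were called (37.8% higher in neurons and 37.4% lower), so that 4 of 8 called is below the share for genes at large. The median log2 fold change of the 8 was -0.12, against 0.01 over all genes tested.

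**Figure D1:**
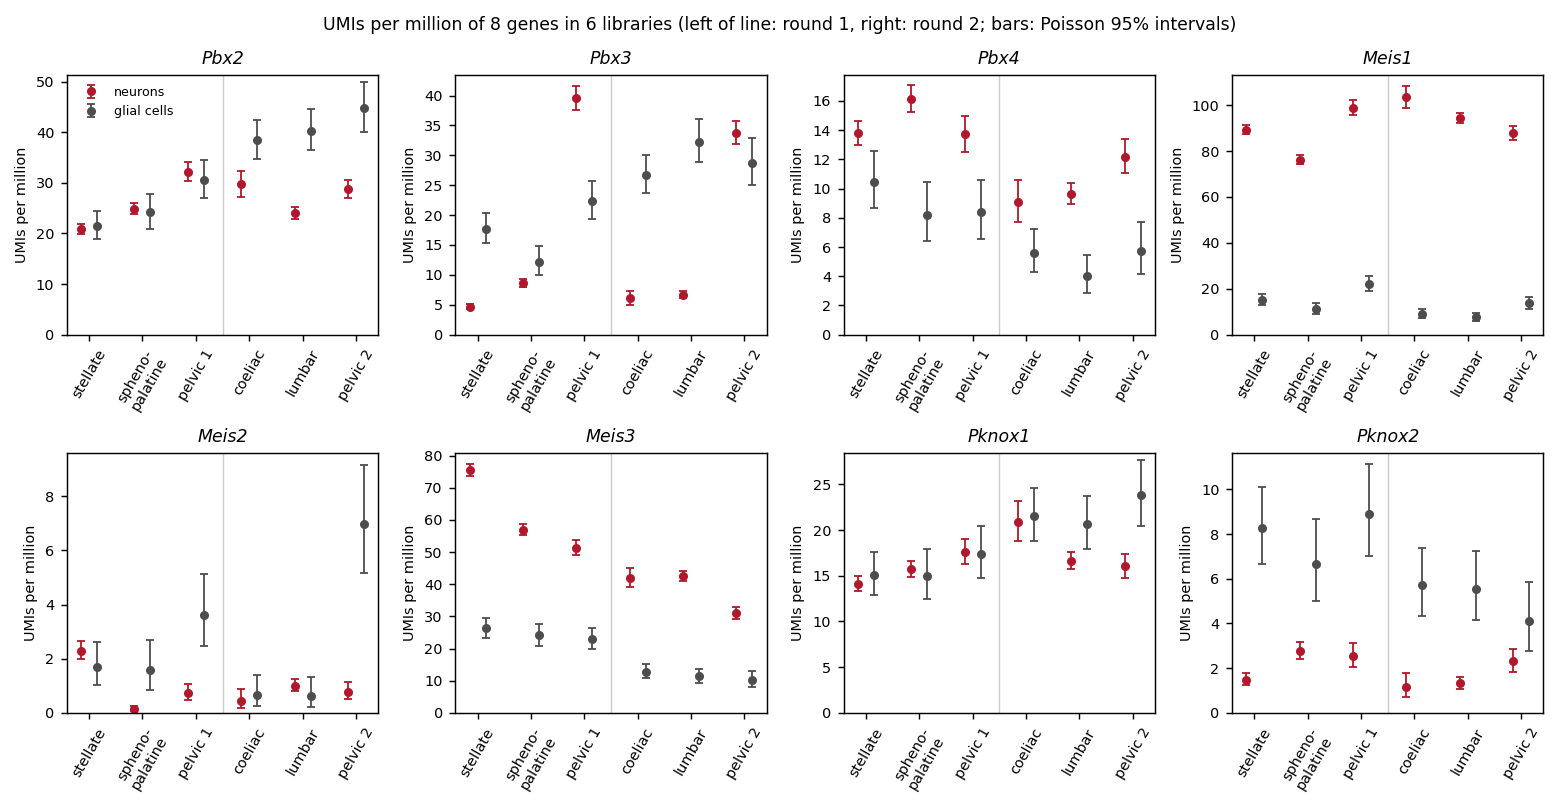
Level of each gene in neurons and glial cells of the 6 libraries, in CPM of the summed cells, with exact Poisson 95% intervals as bars (counting error only). *Meis1* sits between 76.1 and 103 in all neuron sums, and *Pbx3* stands above 30 in neurons of the 2 pelvic libraries and below 9 in the other neuron sums.

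Among the Pbx genes, which supply the partner that touches the Hox protein itself, *Pbx2* was present in every sum. Its neuronal level was 20.9 CPM in the stellate, 24.9 in the sphenopalatine, 32.2 in the first pelvic, 29.7 in the coeliac, 24.02 in the lumbar and 28.7 in the second pelvic library, and the glial levels in the same order were 21.5, 24.2, 30.6, 38.5, 40.3 and 44.7 CPM. The classes overlapped in level. Glial *Pbx2* was highest in the 3 libraries of round 2, and neuronal *Pbx2* spanned 1.54-fold over all ganglia. Neurons against glial cells gave a log2 fold change of -0.19, with an adjusted p of 0.212 in edgeR's quasi-likelihood test.

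*Pbx4*, the Pbx gene known mainly from testis, was called higher in neurons. Its neuronal levels were 13.8, 16.2, 13.7, 9.07, 9.62 and 12.2 CPM (stellate, sphenopalatine, first pelvic, coeliac, lumbar, second pelvic, the order kept from here on), and its glial levels 10.5, 8.22, 8.41, 5.60, 4.01 and 5.73 CPM. The neuronal value was the higher in 6 of 6 libraries, although the coeliac and lumbar neuron sums lay below the stellate glial sum. The log2 fold change was 0.94 (SE 0.15, 6 libraries), or 1.92-fold, with an adjusted p of 0.000516 in edgeR's quasi-likelihood test. Glial *Pbx4* was 41.7 to 75.9% of the neuronal level, above the highest neuronal marker gene in 6 of 6 libraries. An exact sign-flip permutation test of the 6 log2 ratios, two-sided, gave p = 0.03125, the smallest that 6 libraries allow.

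For *Pbx3*, a gene needed for breathing control in newborn mice, the order of the classes changed with the ganglion. In neurons it was 4.69 CPM in the stellate, 8.67 in the sphenopalatine, 39.6 in the first pelvic, 6.12 in the coeliac, 6.68 in the lumbar and 33.8 in the second pelvic library. In glial cells it was 17.7, 12.2, 22.3, 26.7, 32.3 and 28.8 CPM. Neurons were above glial cells in the 2 pelvic libraries and below them in the other 4, and over all 6 the log2 fold change was -0.87 (SE 0.47, 6 libraries) with an adjusted p of 0.122 in edgeR's quasi-likelihood test. The low neuronal levels were 20.7 to 71.0% of the glial level outside the pelvic ganglion, where the highest glial marker gene reached 1.33 to 15.6%. How much of these neuronal levels is free RNA was not tested. Without the first pelvic library the difference between the classes was called (log2 fold change -1.23, adjusted p 0.0315 in edgeR's quasi-likelihood test with Benjamini-Hochberg adjustment).

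**Figure D2:**
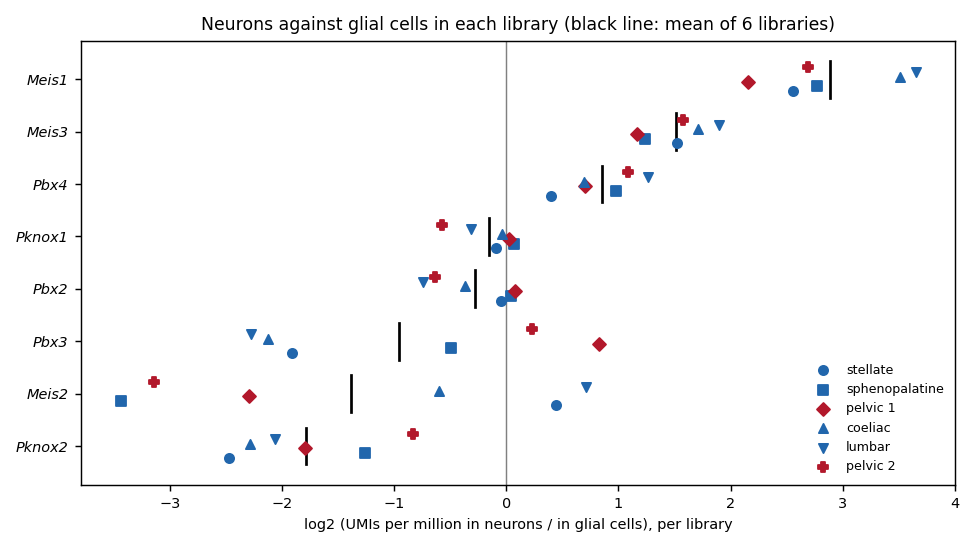
Log2 ratio of the neuronal to the glial level in the same library, 1 point per library, with the line at 0 marking equal levels. All 6 points of *Meis1*, *Meis3* and *Pbx4* lie above 0 and all 6 of *Pknox2* below, while *Pbx3* has its 2 pelvic points at 0.83 and 0.23 and its other 4 between -2.28 and -0.49.

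The Meis genes bind Pbx and widen the choice of sites that the complex can hold. *Meis1*, first known as a site of viral integration in mouse leukaemia, had the largest excess in neurons of the 8 genes. Its neuronal levels were 89.3, 76.1, 98.9, 103, 94.4 and 87.9 CPM, and its glial levels 15.2, 11.1, 22.2, 9.08, 7.51 and 13.6 CPM. The classes did not overlap, and the neuronal level spanned only 1.36-fold across the ganglia. The log2 fold change was 2.97 (SE 0.22, 6 libraries), or 7.85-fold, with an adjusted p of 8.63e-06 in edgeR's quasi-likelihood test. Between 83.4 and 95.7% of neurons held a *Meis1* UMI. With every cell thinned to 2000 UMIs the shares were 14.7 to 18.4% of neurons and 1.16 to 2.96% of glial cells. Glial *Meis1* was 7.95 to 22.5% of the neuronal level. Within a library this was above the 6 neuronal marker genes in 5 of 6 libraries and above the 7th in 0 of 6. How much of glial *Meis1* is free RNA was not tested.

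*Meis3* showed the same order of classes with a smaller step. Neuronal levels were 75.5, 57.0, 51.3, 42.0, 42.5 and 31.01 CPM and glial levels 26.3, 24.2, 22.9, 12.9, 11.4 and 10.4 CPM. No glial sum reached any neuronal sum. Both classes were lower in round 2 than in round 1 (the first and second pelvic libraries differed 2.21-fold in glial cells, where 19.5% of all genes differed at least 2-fold), so ganglia of different rounds are not ordered by this gene. Neurons exceeded glial cells by a log2 fold change of 1.61 (SE 0.13, 6 libraries), or 3.05-fold, with an adjusted p of 1.25e-05 in edgeR's quasi-likelihood test. The glial level, 26.9 to 44.6% of the neuronal one, was above the highest neuronal marker gene in 6 of 6 libraries.

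*Meis2*, which in other parts of the nervous system marks particular neuron types, was scarce in both classes. The neuron sums held 2.29, 0.145, 0.736, 0.445, 1.01 and 0.786 CPM, and at most 4.96% of neurons had a UMI of it. Fibroblast markers summed to 232, 1337, 2400, 5675, 706 and 1464 CPM in neurons with a *Meis2* UMI. In neurons without one they summed to 108, 121, 180, 76.6, 37.8 and 102 CPM. How much of the neuronal *Meis2* comes from other cells was not tested. The glial sums held 1.69, 1.57, 3.62, 0.676, 0.617 and 6.96 CPM. The ranges overlapped, and the log2 fold change was -1.34 (SE 0.65, 6 libraries) with an adjusted p of 0.0934 in edgeR's quasi-likelihood test, but 0.0431 with DESeq2, which called 76.7% of all genes. Leaving out the stellate library gave an adjusted p of 0.0413 and leaving out the lumbar library 0.0394, and the stricter selection of cells gave 0.0317, all with the glial level the higher in edgeR's quasi-likelihood test.

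The Pknox genes encode partners of Pbx that compete with Meis for the same surface. *Pknox1* had neuronal levels of 14.1, 15.7, 17.6, 20.9, 16.7 and 16.03 CPM and glial levels of 15.1, 15.0, 17.4, 21.5, 20.7 and 23.9 CPM. Its 12 sums covered a narrow band in which the classes overlapped, and the log2 fold change was -0.06, with an adjusted p of 0.612 in edgeR's quasi-likelihood test.

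*Pknox2* ran the other way from the Meis genes. Its neuronal levels were 1.49, 2.78, 2.56, 1.17, 1.33 and 2.30 CPM, and its glial levels 8.26, 6.65, 8.88, 5.70, 5.56 and 4.09 CPM. Every glial sum was above every neuronal sum, and neurons were lower in 6 of 6 libraries. The log2 fold change was -1.69 (SE 0.25, 6 libraries), with an adjusted p of 0.000356 in edgeR's quasi-likelihood test. The neuronal level was 18.0 to 56.3% of the glial level, above the highest glial marker gene in 6 of 6 libraries.

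The exact sign-flip permutation test, two-sided and with a smallest possible p of 0.03125, gave that value for *Pbx4*, *Meis1*, *Meis3* and *Pknox2*, and 0.1875 for the other 4 genes, each of which was higher in neurons in 2 of 6 libraries. By family, Meis genes made up 56.3 to 75.3% of the members' UMIs in neurons and 15.97 to 37.2% in glial cells. The Pbx share of the neuronal UMIs was 33.3 and 35.1% in the pelvic libraries and 17.7 to 24.7% in the other 4.

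The second question was whether neurons of the pelvic ganglion carried other cofactor levels than neurons of the sympathetic and sphenopalatine ganglia. *Pbx3* was higher in pelvic neurons, at 36.7 ± 4.06 CPM (SD, n = 2) against 4.69 to 8.67 CPM elsewhere, and the other 7 genes were not called. The lowest pelvic value was 33.8 CPM (exact Poisson 95% interval 32.0 to 35.7) and the highest of the other ganglia, the sphenopalatine, 8.67 CPM (8.02 to 9.36). The 2 pelvic libraries, of different chemistries, differed 1.17-fold in *Pbx3*, where 5.37% of all genes differed at least 2-fold between them. In edgeR's quasi-likelihood test on the 6 neuron sums, with the round as a covariate, the log2 fold change of *Pbx3* was 2.48 (SE 0.24, 2 against 4 libraries), or 5.60-fold, with an adjusted p of 0.0423.

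Of 16561 genes tested in neurons, 77 (0.465%) were called, 60 of them higher in pelvic neurons (0.362% of all tested) and 17 lower (0.103%). The test had little room: genes simulated with a log2 change of 1 were recovered in 3% of cases and with a log2 change of 2 in 64%. DESeq2 called 1324 genes (7.99%), *Pbx3* being the only member among them. The log2 fold change of *Pbx3* ran from 2.005 to 2.68 over 15 alternative settings, and the call was lost in 7 of them. With edgeR's quasi-likelihood test its adjusted p was 0.0586 with no filter on low counts, 0.0746 with cells thinned to 2000 UMIs, 0.0802 without the stellate library, 0.486 without the first pelvic, 0.144 without the coeliac, 0.153 without the lumbar and 0.558 without the second pelvic library. Without the sphenopalatine library it was 0.000174, and DESeq2 gave 2.48e-15 on all 6.

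The share of neurons with a *Pbx3* UMI followed the levels within each round. It was 11.7% in the stellate, 27.3% in the sphenopalatine and 60.5% in the first pelvic library, and 29.96% in the coeliac, 33.8% in the lumbar and 66.6% in the second pelvic library. Glial cells, which are shallower, had a UMI in 6.31, 5.74, 8.37, 24.8, 26.9 and 26.5% of cells in the same order. With neurons thinned to 4000 UMIs the shares were 2.18, 3.38, 13.0, 3.02, 2.81 and 9.74%, so the 2 pelvic libraries stood above the other 4 at equal depth.

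Differences of the other 7 genes in pelvic neurons were smaller. *Meis3* had a log2 fold change of -0.41 with an unadjusted p of 0.0443 and an adjusted p of 0.325 in edgeR's quasi-likelihood test, and without the sphenopalatine library it was called lower (log2 fold change -0.50, adjusted p 0.0355). *Pknox2* had 0.58, *Pbx2* 0.30, *Pbx4* 0.13, *Meis1* 0.04, *Pknox1* 0.01 and *Meis2* -0.34 on the log2 scale, with adjusted p between 0.418 and 0.983 in edgeR's quasi-likelihood test. The median over the 8 genes was 0.09, against -0.03 over all genes tested.

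Ganglia with 1 library each cannot be tested against each other, so libraries of the same round were compared by a fixed size: at least 2-fold with exact Poisson 95% intervals apart, among genes with 10 CPM in either library. *Pbx3* in neurons was the only member to reach it within a round. The first pelvic library exceeded the stellate 8.44-fold and the sphenopalatine 4.56-fold (10.2 and 7.51% of all genes past the rule in those comparisons), and the second pelvic exceeded the coeliac 5.53-fold and the lumbar 5.06-fold (9.36 and 9.52% of all genes). No member reached it between stellate and sphenopalatine neurons, where 10.4% of genes did, or between coeliac and lumbar neurons, where 2.01% did. In glial cells no member reached it within a round, where 3.82% of genes did between stellate and sphenopalatine, 4.29% between stellate and pelvic, 3.02% between sphenopalatine and pelvic, 0.86% between coeliac and lumbar, 2.11% between coeliac and pelvic and 2.43% between lumbar and pelvic. *Meis2* and *Pknox2* stayed below the minimum of 10 CPM.

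Within the pelvic ganglion *Pbx3* was unevenly spread. Pelvic neurons were clustered without the 8 genes, which gave 4 clusters that carry the markers of the study's classes and are called P1-like, P2-like, P3-like and P4-like, and 2 that stayed unnamed. P3-like neurons are noradrenergic, with *Th*, the rate-limiting enzyme of catecholamine synthesis, at 501 and 515 CPM in the first and second library, and the other 5 clusters hold the cholinergic genes. *Pbx3* was highest in the P4-like cluster, at 68.1 CPM in the first library and 63.9 in the second, where 94.8 and 93.8% of cells had a UMI. It was 51.3 and 28.6 CPM in the P2-like and 46.0 and 43.5 CPM in the P1-like cluster. The P1-like value depends on the resolution of the clustering: at 0.6 in place of 0.3, with 8 clusters, a cluster with 4 P1 markers led by *Cartpt* and *Areg* held 20.3 and 10.2 CPM and one with 3 P1 markers led by *Gng8* 62.4 and 61.2 CPM, while the P3-like and P4-like values were as before.

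The P3-like cluster held 1.16 and 2.65 CPM of *Pbx3*, from 6 and 10 UMIs in 131 and 33 cells. Its highest interval bound was 4.87 CPM and the lowest interval bound of the P1-, P2- and P4-like clusters 25.1 CPM, so the intervals lay apart in both libraries. The P3-like level was 5.19 and 9.20% of the glial level, where glial marker genes reached up to 6.99 and 7.61%. It was thus below the highest glial marker gene in the first library and above it in the second. How much of it is free RNA was not tested. An unnamed cluster with *Areg* and *Cartpt* among its leading genes was also low, at 7.15 and 6.33 CPM, which was 32.0 and 22.0% of the glial level. The other unnamed cluster, led by haemoglobin and collagen genes, held 50.5 and 38.3 CPM. The clusters come from the same cells as these values, so no test was made.

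**Figure D3:**
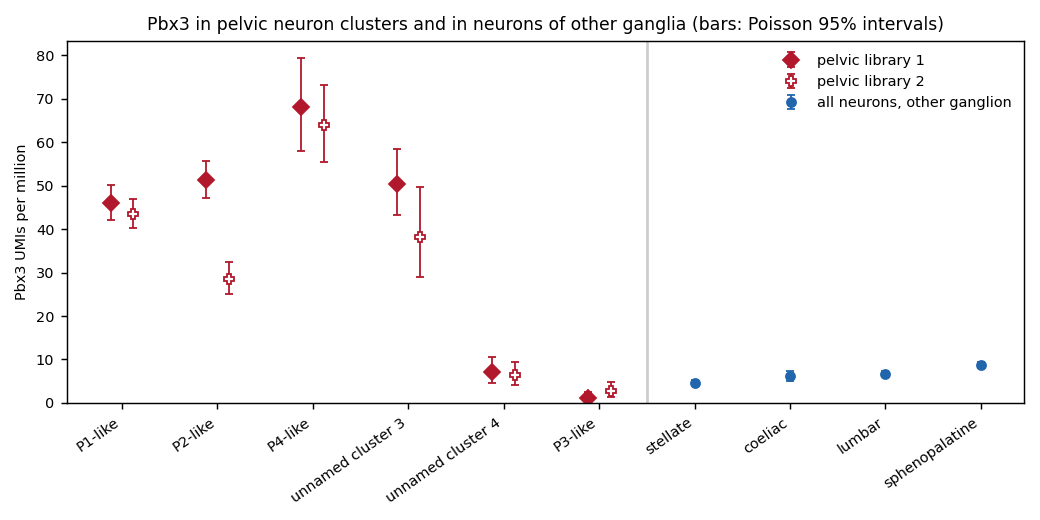
*Pbx3* level by cluster of pelvic neurons, in CPM of the summed cells, for the first and second pelvic library with exact Poisson 95% intervals (counting error only). The P3-like cluster stays below 3 and the unnamed cluster with *Areg* and *Cartpt* between 6 and 8, while the other 4 clusters lie between 28.6 and 68.1.

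Leaving the P3-like cells out, as chosen after seeing the values, raised *Pbx3* in pelvic neurons to 45.9 and 37.4 CPM. Without the cluster led by haemoglobin and collagen genes it was 38.4 and 33.6 CPM, close to the value with all cells. Outside the pelvic ganglion low *Pbx3* was found both in the sympathetic ganglia and in the sphenopalatine ganglion.

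Of the other members, both Pknox genes spanned more than 2-fold over the named pelvic clusters. *Pknox2* was 4.62 and 3.58 CPM in the P1-like and 5.07 and 2.47 CPM in the P4-like cluster, against 1.27 and 1.40 in the P2-like and 0.386 and 0.530 in the P3-like cluster. In that order of clusters these values rest on 52 and 58, 12 and 8, 14 and 12, and 2 and 2 UMIs. In the second library the Poisson interval of the P4-like cluster (1.07 to 4.86 CPM) overlapped those of the P2-like (0.724 to 2.45) and P3-like clusters (0.0641 to 1.91). *Pknox1* was highest in P3-like neurons, at 24.5 and 30.7 CPM, and lowest in P4-like neurons, at 13.5 and 10.5 CPM, a 2.31-fold span over both libraries. *Meis2* had at most 13 UMIs in any named cluster of a library, and its highest named cluster was the P4-like in the second library (4.01 CPM) but the P3-like in the first (0.965 CPM), so it is given no order.

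*Meis1*, *Meis3*, *Pbx2* and *Pbx4* spanned less than 2-fold over the named clusters. *Meis1* was 123 and 111 CPM in the P4-like, 110.2 and 122 CPM in the P3-like, 95.2 and 71.4 CPM in the P2-like and 84.5 and 75.3 CPM in the P1-like cluster. The unnamed cluster with *Areg* and *Cartpt*, low in *Pbx3*, had the highest *Meis1* of all, at 131 and 127 CPM. *Meis3* differed more between the libraries than between clusters, with 44.8 to 63.3 CPM in the first and 29.0 to 36.3 CPM in the second.

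In glial cells, edgeR's quasi-likelihood test of the pelvic against the other ganglia called 0 of the 8 members. Of 13762 genes tested, 4 were called (0.0291%), so 0 of 8 is near the share for all genes. Within each round the pelvic library had the highest glial *Pbx2*, *Meis1*, *Meis2* and *Pknox1* and the lowest *Meis3*. *Pbx3*, *Pbx4* and *Pknox2* kept no such order in both rounds. At an unadjusted p under 0.05 in edgeR's quasi-likelihood test, 3 members passed (*Meis1*, *Meis2* and *Pbx2*), as did 1412 of the 13762 genes. DESeq2 called 1 member (*Meis2*), with 1.34% of all genes. *Pbx3* itself differed by a log2 fold change of 0.27 in glial cells, with an adjusted p of 0.721 in edgeR's quasi-likelihood test. *Meis1* was 0.73 higher on the log2 scale (SE 0.16, 2 against 4 libraries) with an adjusted p of 0.211 in edgeR's quasi-likelihood test, at the low glial levels given above.

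*Meis2* had the largest glial difference, with a log2 fold change of 2.28 (SE 0.51, 2 against 4 libraries), an unadjusted p of 0.00288 and an adjusted p of 0.211 in edgeR's quasi-likelihood test, 0.0296 with no filter on low counts, and 0.0298 with DESeq2. The value rests on few cells. There were 19, 13, 31, 7, 6 and 51 *Meis2* UMIs in the 6 glial sums, in 15, 12, 20, 3, 3 and 11 cells, and 45 of the 51 in the second pelvic library came from 6 cells. Markers of mural cells, the smooth muscle cells and pericytes of vessel walls, were high in the same second pelvic library: the summed level of 6 mural markers in glial cells was 96.8, 108, 71.6, 48.0, 65.6 and 197 CPM, with all 6 detected in every library. In the first pelvic library, by contrast, *Meis2* was the highest of round 1 and the mural sum the lowest of round 1. In the second pelvic library it was 5774 CPM in glial cells with a *Meis2* UMI and 35.2 CPM in those without. *Myh11*, a smooth muscle myosin, was 42.7 CPM there and 0.206 to 3.39 CPM in the other glial sums. Fibroblast markers summed to 2434, 2738, 4643, 5405, 3999 and 7181 CPM in the 6 glial sums, highest in the pelvic library of each round. In glial cells with a *Meis2* UMI they summed to 11690, 20200, 19120, 27230, 890 and 10860 CPM. In those without they summed to 2349, 2517, 4143, 5253, 4038 and 7074 CPM, so only the lumbar library had the reverse order. The part of cells with mural or fibroblast markers in the *Meis2* difference was not tested.

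Whether the pelvic difference itself was unlike in neurons and glial cells was tested as an interaction over the 12 sums. Of 15601 genes, 94 (0.603%) were called, with the pelvic difference higher in neurons for 0.494% and lower for 0.109%, and 0 of the 8 members was called by edgeR's quasi-likelihood test. For *Pbx3* the pelvic difference was larger in neurons by 2.31 on the log2 scale (SE 0.36, 6 libraries), with an unadjusted p of 0.00043 and an adjusted p of 0.059 in edgeR's quasi-likelihood test. DESeq2, with 3.08% of all genes called, called *Pbx3* (adjusted p 1.03e-05), as did edgeR's quasi-likelihood test with no filter on low counts (adjusted p 0.00337) and without the sphenopalatine library (log2 difference 2.62, adjusted p 3.89e-05). Unadjusted p under 0.05 in edgeR's quasi-likelihood test was reached by 2 members, *Pbx3* and *Meis1*, and by 1991 of the 15601 genes. *Meis1* had a log2 difference of -0.63 and an adjusted p of 0.156 in that test. For *Meis2* the log2 difference was -2.17 with an adjusted p of 0.477 in edgeR's quasi-likelihood test, and it was called in 1 of its alternatives, without the sphenopalatine library (-2.99, adjusted p 0.0074).

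Cells that were neither neurons nor glia showed where the members scarce in the ganglion proper were found. Clusters that carried their own markers gave 778 fibroblast-like, 682 endothelial-like, 583 mural-like and 520 macrophage-like cells over all libraries. *Meis2*, scarce in neurons, stood at 119 CPM in fibroblast-like, 51.6 in endothelial-like and 70.2 in mural-like cells. It varied strongly between libraries, from 5.93 to 121 CPM in endothelial-like cells, from 4.68 CPM (2 UMIs, stellate) to 161 CPM in mural-like cells, and from 49.3 CPM in the sphenopalatine to 294 CPM in the second pelvic library in fibroblast-like cells of the 5 libraries with at least 20 of them. The lower value in macrophage-like cells, 7.62 CPM, ran from 0 to 78.2 CPM by library, in a cluster with the mast cell genes *Mcpt2* and *Cma1* among its leading genes.

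**Figure D4:**
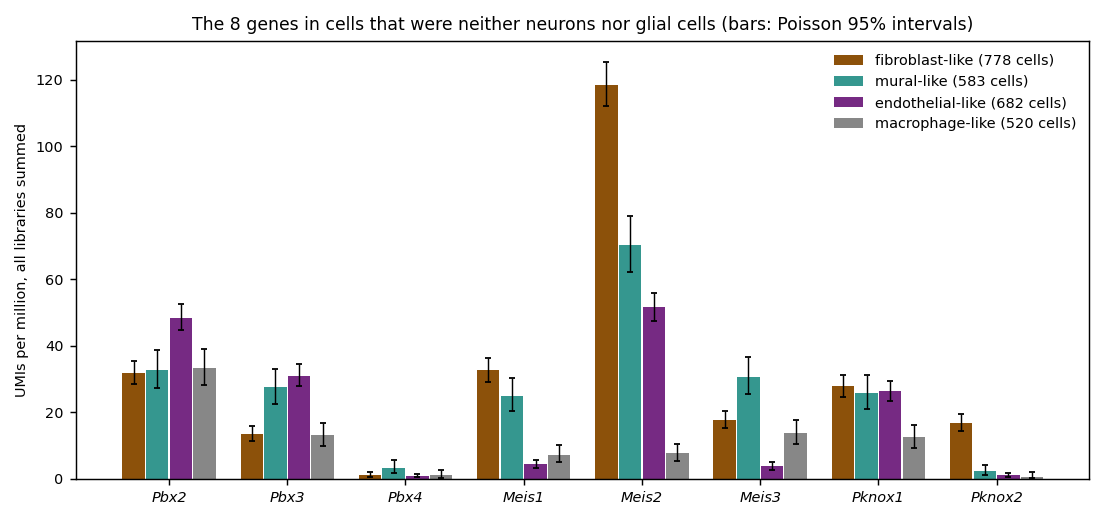
Level of each gene in fibroblast-like, mural-like, endothelial-like and macrophage-like cells, in CPM of the cells summed over all libraries. Among these classes *Meis2* is highest in fibroblast-like cells (119), and *Pbx4* lies between 0.84 and 3.25.

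*Pbx4* was low in all 4 classes, at 1.16 CPM in fibroblast-like, 0.844 in endothelial-like, 3.25 in mural-like and 1.09 in macrophage-like cells. *Pbx2* was found at 31.9 to 48.5 CPM and *Pbx3* at 13.1 to 31.1 CPM in the 4 classes. *Meis1* was 32.6 CPM in fibroblast-like and 24.98 in mural-like but 4.39 in endothelial-like and 7.19 in macrophage-like cells. The fibroblast-like value was 54.3 and 73.4 CPM in the 2 pelvic libraries and 5.64, 16.5 and 18.96 CPM in the sphenopalatine, coeliac and lumbar libraries, so the pooled level rests on the pelvic ones. *Pknox2* was 16.9 CPM in fibroblast-like cells and 0.654 to 2.25 CPM in the other 3, while *Pknox1* kept to 12.4 to 27.8 CPM.

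The cofactors can be set beside the Hox genes they serve. The summed level of 39 Hox genes in neurons was 172 CPM in the stellate, 9.55 in the sphenopalatine, 573 in the first pelvic, 330.1 in the coeliac, 277 in the lumbar and 620 in the second pelvic library, a wide range with the head ganglion at the bottom. The summed level of the 8 cofactors was 222, 201, 257, 213, 196 and 213 CPM in the same order. Sphenopalatine neurons, where 1 Hox gene reached 10% of cells, held a cofactor sum within the range of the ganglia where 7 to 26 did. In glial cells the Hox sum ran from 2.66 CPM in the sphenopalatine to 482 in the first pelvic library, and the cofactor sum from 103 to 138 CPM.

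Of the other TALE homeobox genes, 9 were followed for comparison (the *Irx* genes, *Mkx*, *Tgif1* and *Tgif2*). Against glial cells, 3 could be tested, of which 2 were lower in neurons and none higher. *Tgif1* and *Tgif2*, repressors that act in TGF-β signalling, had 0.166 to 0.927 and 0.166 to 1.12 CPM in neurons and 18.6 to 25.8 and 25.02 to 42.2 CPM in glial cells. *Pbxip1*, whose product binds Pbx and keeps it from DNA, was 0.788 to 2.59 CPM in neurons and 44.7 to 59.9 CPM in glial cells, with a log2 fold change of -5.03. *Irx1*, *Irx4* and *Irx6* had 0 UMIs in either class.

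The genes whose levels followed each member most closely were ranked by Pearson's r of log2(CPM + 1) over the 12 sums of neurons and glial cells among 11156 genes, as a description, since the sums share libraries and depth. *Ankrd44* (r = 0.97), *Prkg1* (0.97) and *Lhfpl2* (0.96) were nearest to *Pbx3*, and *Prkg1*, a cGMP-dependent kinase, had 23.7 and 35.6 CPM in pelvic neurons against 0.554 to 4.26 CPM in the other neuron sums. *Meis1* was followed by *Slc38a1*, *Tomm70a* and *9530059O14Rik* (all 0.99), and *Meis3* by *Cdipt*, *Coprs* and *Cnrip1* (all 0.99). *Pbx4* had *Ndufaf5*, *1600014C10Rik* and *Pdk1* (0.97 each), *Pknox2* had *Litaf* (0.98), *Fbxl4* (0.97) and *Sipa1l1* (0.97), *Pbx2* had *Ubp1*, *Sik3* and *Rcor1* (0.95 each), and *Pknox1* had *Hnrnpul2* and *Upf1* (0.95 each). The nearest genes to *Meis2* were *Mylk* (0.78), *Clk3* (0.77) and *Myh11* (0.76), 2 of them genes of smooth muscle contraction.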

How the data were processed

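Whole ganglia were dissociated and sequenced on the 10x Genomics platform. With Cell Ranger 6.0.1 and the mm10 build, the authors turned reads into UMI counts and deposited the filtered tables of these raw counts (39353313 to 113352559 UMIs per library). From the 30777 deposited droplets, 21442 with more than 1500 and fewer than 11000 genes and under 15% mitochondrial counts were kept, as in the study's methods. Values were normalised with sctransform 0.4.2 (Poisson fit) in Seurat 5.3.0. Cells with a mean above 3 over *Stmn2*, *Stmn3*, *Gap43* and *Tubb3* were neurons, unless the mean of 5 glial marker genes, among them *Ttyh1*, *Fabp7*, *Cryab* and *Mal*, reached 1.15 (226 cells above both were set aside); the remaining cells at or above the glial value were glial cells. The threshold of 1.15 is the valley of the histogram.

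Counts were summed per library and class and tested with edgeR 4.0.16 (TMM, filterByExpr, quasi-likelihood) over all genes, with Benjamini-Hochberg adjustment and a threshold of 0.05. DESeq2 1.42.0 was an alternative, beside other normalisations, no filter, thinned cells, other cell selections, removal of likely doublets (10.21% of cells, kept otherwise), no round term, and leaving out each library. On simulated counts, the neuron against glial cell fit on 14019 genes recovered 75% of genes changed by 1 and 99% changed by 2 on the log2 scale. Each SE beside an edgeR log2 fold change is the absolute fold change on that scale over the square root of the test's F statistic. It is not a spread measured directly between libraries. Shares carry Wilson and levels exact Poisson 95% intervals, which cover counting error only. Pelvic neurons and remaining cells were clustered (Louvain, 50 components of 3000 variable genes, 20 neighbours, resolution 0.3 and 0.5, members left out) and named from marker genes, which need not match the study's own classes. All 8 members were named, with the 3 genes nearest to each, of which 1 is not reported here. The members and the gene lists were chosen with earlier results of these data known. R 4.3.3, Python 3.11.15, numpy 2.4.6, scipy 1.17.1, scikit-learn 1.9.0, igraph 0.11.9 and matplotlib 3.10.9 were used.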

Additional observations from a re-analysis of the deposited data

Results flagged for a closer look

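*Pbx3* was flagged because its neuronal and glial levels stood in opposite order in the pelvic and the other libraries. In the second pelvic library the Poisson intervals of neurons and glial cells overlapped, and with cells thinned to 2000 UMIs the glial level was the higher. The log2 ratio of neurons to glial cells was 0.83 and 0.23 in the 2 pelvic libraries and -1.92, -0.49, -2.12 and -2.28 in the stellate, sphenopalatine, coeliac and lumbar libraries, a difference of mean log2 ratios of 2.231 between the groups. The test of that difference is the interaction in the report, with an adjusted p of 0.059 in edgeR's quasi-likelihood test with Benjamini-Hochberg adjustment. Among 24 groups of 4 or 6 values that were searched for a single sample far from the others, 0 held one, where chance gives about 1 in 20.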

How the results depend on the processing

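The call of neurons against glial cells was kept for *Meis1*, *Meis3*, *Pbx4* and *Pknox2* in every alternative run, and 9948 to 10374 genes were called when each library was left out. *Meis2*, not called, was called with DESeq2, the stricter selection, and without the stellate or lumbar library. Genes called between pelvic and other neurons numbered 1324 with DESeq2, 22 with no filter, 40 with no round term, and 0 to 2915 with a library left out, against 77. In glial cells there were 185 with DESeq2, 213 with no filter, 14 with thinned cells, 22 with the stricter selection (which leaves 26 stellate glial cells), 0 with no round term, and 0 to 372 with a library left out, against 4. For the interaction there were 481 with DESeq2, 396 with no filter, 49 with thinned cells and 0 to 1517 with a library left out, against 94. In each of these 3 comparisons the highest count came without the sphenopalatine library and a count of 0 without either pelvic library, and 0 also came without the stellate library in neurons and in the interaction and without the coeliac library in glial cells. With a fold of 1.5 in place of 2, 8 comparisons of a member within a round passed in place of 4. The causes were not tested.

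The sign turned for differences that were not called. *Pknox1* in neurons against glial cells was 0.033 with thinned cells and -0.093 to 0.011 with a library left out. In pelvic neurons, *Meis2* was 0.035 with selection on log counts (-0.77 to 1.00 with a library left out), *Pknox1* was -0.34 with thinned cells and -0.0018 without likely doublets (-0.17 to 0.23), *Pbx4* ran from -0.14 to 0.43 and *Meis1* from -0.12 to 0.24. In pelvic glial cells, *Pbx4* was -0.0045 with no filter, -0.057 with selection on log counts and -0.0031 with no round term (-0.17 to 0.24), *Pknox2* was 0.38 with thinned cells (-0.47 to 0.24), and *Pbx3* ran from -0.045 to 0.56. In the interaction, *Pbx4* was -0.22 with thinned cells (-0.086 to 0.26), *Pbx2* was -0.0025 with total UMIs (-0.063 to 0.084), and *Pknox1* ran from -0.32 to 0.044.

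No paired analysis was possible because the labels give the groups only replicate number 1 in common, which concerns pairing of ganglia by number. Neurons and glial cells were paired within libraries by the library block, and 10707 genes were called without the block against 10540 with it. Depth limits *Meis2* and *Pknox2* in neurons most, with under 3 CPM in each neuron sum.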
